A study of Homo sapiens with 6 samples.

Results

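Ribosome biogenesis and nucleolar genes were compared between MDA-MB-231 cells transfected with an HS3ST2 expression plasmid and the same cells given a control vector. The set holds 54 genes named by symbol, whose products transcribe, modify, fold and cut ribosomal RNA or assemble it with ribosomal proteins. A gene was measured if at least 1 probe set was annotated to it and to no other gene, and its probe sets were averaged. By this rule 48 of the 54 genes were measured by 98 probe sets, among 19775 genes on the array. NOP56, DKC1, BOP1, DDX18, GNL3 and PPAN had no such probe set and are not described.

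Ribosomes are built mostly in the nucleolus. RNA polymerase I transcribes a long precursor RNA there, small nucleolar RNA-protein particles (snoRNPs) modify it at chosen bases, and large assemblies fold and cleave it into the RNAs of the small and the large subunit. The pathway is known to be most active in growing and dividing cells, and many of its genes are known targets of the transcription factor MYC, which binds the E-box CACGTG.

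Both groups were the same human breast cancer line, which is mesenchymal in appearance, and each had 3 arrays, described in the design as independent replicates. HS3ST2 encodes a heparan sulfate 3-O-sulfotransferase. The labels do not say which promoter drives the plasmid, how long after transfection RNA was taken, or whether cells were selected or cloned. They also do not say whether the replicates were separate transfections, so each p-value rests on a spread between arrays that may be technical. The deposited values are on a log2 scale and are centred, so that the median of the 6 arrays is 0 for each probe set. Levels of different genes therefore cannot be compared, and whether the line's defining markers are present cannot be read from them. Where the groups of a single probe set do not overlap, the lowest value of one group and the highest of the other mirror each other around 0 by construction.

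The probe set for HS3ST2 had 0.16, 0.04 and -0.04 in the arrays labelled HS3ST2, against -0.22, 0.17 and -0.11 in the control vector arrays. The difference of 0.11 ± 0.10 log2 (SE, n = 3 per group, limma adjusted p 0.523) does not check the labels, and the arrays are called HS3ST2-labelled. Over the 19775 genes, the median absolute difference between arrays was 0.14 to 0.17 log2 between groups and 0.08 to 0.10 within a group. Over the 48 genes described here it was 0.21 to 0.29 between groups and 0.05 to 0.08 within a group. None of the 8 fibroblast or 6 leukocyte marker genes was called by limma, either adjusted or at an unadjusted p under 0.05.

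Ribosome biogenesis genes were mostly lower in the HS3ST2-labelled arrays, and by modest amounts. By limma, at an adjusted p under 0.05 over all genes, 26 of the 48 fell (54.2%), 1 rose (2.08%) and 21 were not called. Over all genes 13% were called lower, 11.5% higher and 24.5% in either direction. The median difference was -0.24 log2 over the 48 genes and 0.01 over all genes, and 44 of the 48 differences were negative. The groups did not overlap for 33 of the 48 genes with HS3ST2-labelled arrays lower and for 2 with them higher, where 20.9% and 19.5% of all genes were so separated (40.4% in either direction). None of the changes reached 1 log2, whereas 93 genes of the whole array were lower by at least that much. The median size of the 26 falls was 0.357 log2, against 0.345 for all 2571 genes that fell.

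**Figure D1:**
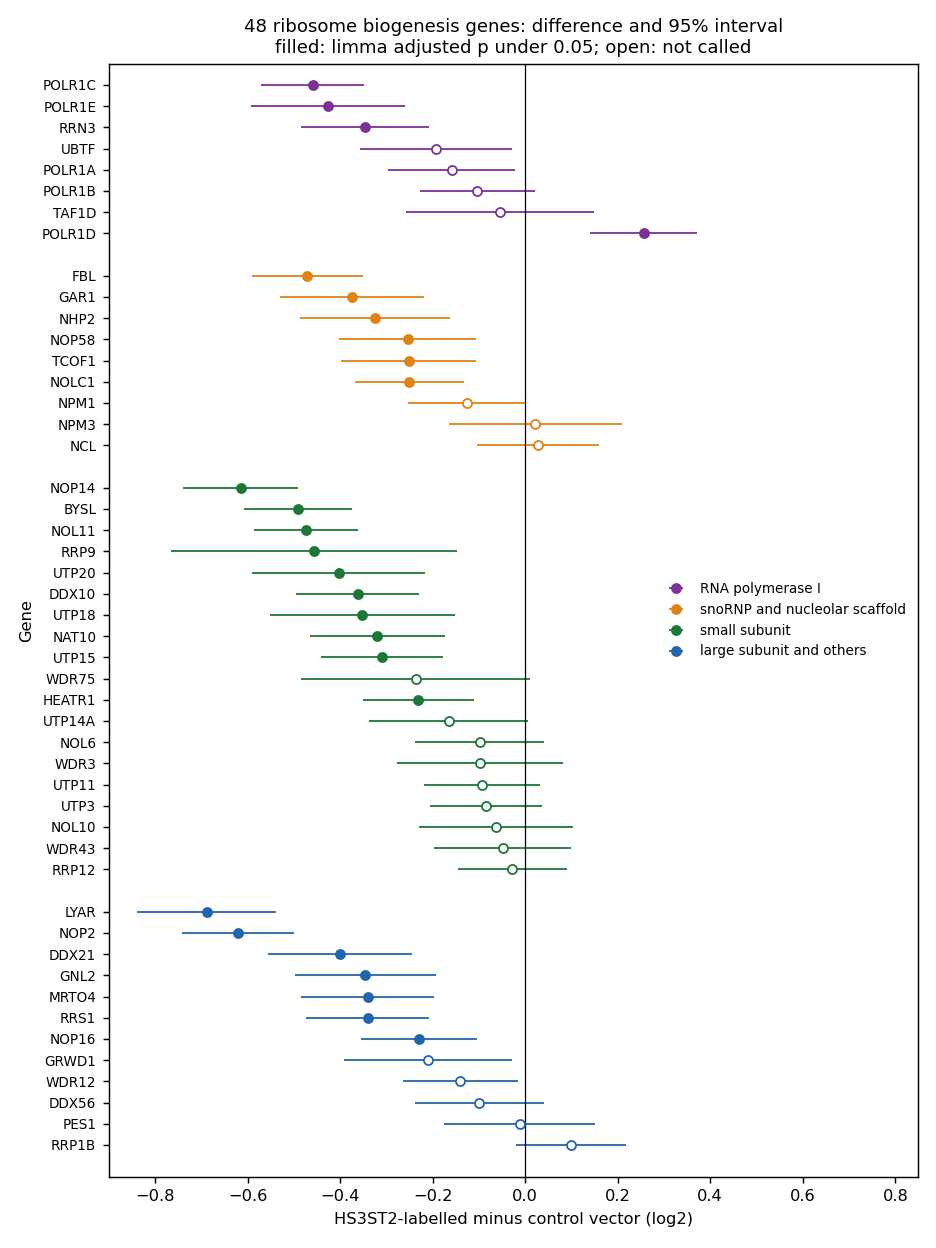
Difference between the HS3ST2-labelled and the control vector arrays for each of the 48 genes (log2, point) with its 95% interval (line), grouped by role; filled points passed an adjusted p of 0.05 by limma. All but 4 points lie left of 0, and POLR1D is the filled point right of 0.

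The median of the 48 genes was -0.11, -0.14 and -0.09 in the HS3ST2-labelled arrays, against 0.13, 0.13 and 0.12 in the control vector arrays. Each of the 3 HS3ST2-labelled arrays therefore lay below each control array for the set as a whole. Leaving out any 1 array left 22 to 25 of the 48 genes called lower and 1 called higher, POLR1D. Of all 19775 genes, 2025 to 2162 were called lower in those fits and 1729 to 1899 higher. Of the 26 genes that fell, 18 were called lower at every setting tried, other than stricter thresholds, that measured them. Among these, FBL, LYAR, NHP2, NOL11, NOP14 and RRN3 were not measured with _x_at and _s_at probe sets left out.

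Promoter sequence was examined for the E-box, CACGTG, which reads the same on both strands. RefSeq promoter windows of 300 bases (250 before and 50 after a transcript's start, GRCh38.p14) were found for 40 of the 48 genes. The E-box was present in a window of 17 of the 40 (42.5%), against 10.9% of the 15384 measured genes with a window. Counted by window, 17 of the 48 windows of these 40 genes held one, against 2548 of all 35116 windows (7.26%), which include unmeasured genes. In 14 of the 17 windows that held one, the first E-box lay in the last 100 bases, around the start. The windows of the 4 genes with the smallest p among those that fell and held an E-box are shown, followed by one of the 2 windows of POLR1D, the gene that rose, neither of which held an E-box. LYAR had another window without one. Capitals mark the E-box, and the start lies after base 250.
NOP2 (chr12:6568242-6568541, minus strand): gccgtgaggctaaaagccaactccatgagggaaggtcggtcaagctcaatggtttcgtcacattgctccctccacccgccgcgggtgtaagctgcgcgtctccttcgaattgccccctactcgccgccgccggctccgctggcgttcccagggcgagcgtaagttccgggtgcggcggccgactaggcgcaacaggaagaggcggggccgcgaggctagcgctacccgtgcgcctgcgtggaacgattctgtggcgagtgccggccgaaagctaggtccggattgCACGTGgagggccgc
NOP14 (chr4:2963357-2963656, minus strand): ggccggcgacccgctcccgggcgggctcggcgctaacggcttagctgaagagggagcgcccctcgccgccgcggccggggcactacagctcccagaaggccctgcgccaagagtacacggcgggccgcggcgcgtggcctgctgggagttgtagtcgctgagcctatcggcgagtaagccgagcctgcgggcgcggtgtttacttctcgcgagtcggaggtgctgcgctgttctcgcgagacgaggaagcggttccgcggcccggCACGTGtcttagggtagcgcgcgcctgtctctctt
LYAR (chr4:4289972-4290271, minus strand): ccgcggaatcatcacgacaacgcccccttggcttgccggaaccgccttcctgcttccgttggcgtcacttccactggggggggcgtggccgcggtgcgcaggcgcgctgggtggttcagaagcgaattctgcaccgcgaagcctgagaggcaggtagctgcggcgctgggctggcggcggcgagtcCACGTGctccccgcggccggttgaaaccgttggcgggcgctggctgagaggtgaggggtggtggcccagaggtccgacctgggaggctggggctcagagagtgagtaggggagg
BYSL (chr6:41921249-41921548, plus strand): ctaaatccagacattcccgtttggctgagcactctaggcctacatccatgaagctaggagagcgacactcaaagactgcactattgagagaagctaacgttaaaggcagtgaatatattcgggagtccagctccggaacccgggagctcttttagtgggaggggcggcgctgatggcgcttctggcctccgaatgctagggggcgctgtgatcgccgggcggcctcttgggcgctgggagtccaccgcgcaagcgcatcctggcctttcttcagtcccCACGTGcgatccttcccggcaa
POLR1D (chr13:27620493-27620792, plus strand): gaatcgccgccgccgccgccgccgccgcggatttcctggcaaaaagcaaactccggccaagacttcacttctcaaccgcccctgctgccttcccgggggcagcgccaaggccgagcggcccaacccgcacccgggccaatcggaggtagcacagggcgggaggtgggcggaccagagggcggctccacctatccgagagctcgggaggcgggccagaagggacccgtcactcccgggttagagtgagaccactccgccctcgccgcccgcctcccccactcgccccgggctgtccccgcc

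By outcome, an E-box was present in windows of 13 of 21 genes that fell (61.9%) and of 4 of 19 that did not (21.1%). The genes that fell with one were NOP2, NOP14, LYAR, BYSL, FBL, DDX21, GAR1, MRTO4, GNL2, NAT10, UTP20, UTP18 and RRP9, and those not called were UTP14A, NOL6, WDR43 and PES1. POLR1C and NOL11, which fell with small p-values, had none in their windows. Among the 120 further biogenesis genes, 16 of 44 that fell (36.4%) and 13 of 62 that did not (21%) held one. The share was 13.8% for 65 mitochondrial and 6.38% for 47 cytosolic ribosomal protein genes. Over all measured genes it was 15.1% of those that fell, 11.1% of those that rose and 10.1% of those not called.

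These shares are descriptions without a test, and a match of letters is not a bound site. The E-box contains a CpG, and promoters differ in base composition. The median window had 24 CpG in the nucleolar genes and 22 in all measured genes, and the median GC content was 60.2% and 63%. Among the 8751 measured genes whose window held at least as many CpG as the lower quartile of the nucleolar genes, 12.9% had an E-box. Those genes had a median of 31 CpG and 69.3% GC, so they were not matched to the nucleolar genes in composition. CpG and GC were taken from the first window listed for a gene, whereas an E-box was sought in all of its windows.

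**Figure D2:**
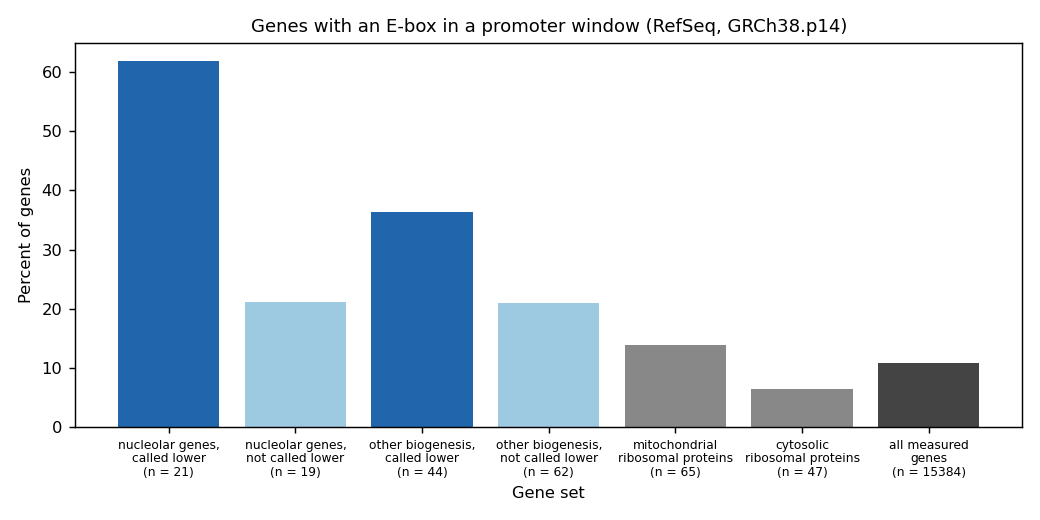
Percent of genes with an E-box in a RefSeq promoter window of 300 bases, by gene set and by whether the gene was called lower in the HS3ST2-labelled arrays; n is the number of genes with a window. The share is 61.9% for nucleolar genes that fell, 21.1% for those that did not, and 10.9% for all measured genes.

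MYC, named here after its value was seen, had -0.33, -0.38 and -0.30 in the HS3ST2-labelled arrays, against 0.34, 0.30 and 0.32 in the control vector arrays. It fell by 0.66 ± 0.05 log2 (SE, n = 3 per group, limma adjusted p 9.69e-05). The groups were separate and the spread within each was small. Its part in the falls of the nucleolar genes was not tested.

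Of 8 measured genes of RNA polymerase I and its initiation factors, 3 fell (37.5%), 1 rose (12.5%) and 4 were not called, where 13% of all genes were called lower and 11.5% higher. Of the initiation factors, RRN3 fell and UBTF and TAF1D were not called. POLR1C, a subunit shared by RNA polymerases I and III, had -0.23, -0.26 and -0.27 in the HS3ST2-labelled arrays, against 0.19, 0.21 and 0.21 in the control vector arrays. It fell by 0.46 ± 0.05 log2 (SE, n = 3 per group, limma adjusted p 0.000389), and both of its probe sets were called lower (-0.47 and -0.45). The groups were far apart relative to their spread, with SDs of 0.02 and 0.01.

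POLR1E, a subunit particular to RNA polymerase I, had -0.15, -0.39 and -0.21 in the HS3ST2-labelled arrays, against 0.14, 0.23 and 0.15 in the control vector arrays. RRN3, the factor that brings RNA polymerase I to its promoter, had -0.30, -0.20 and -0.12 in the HS3ST2-labelled arrays, against 0.12, 0.16 and 0.14 in the control vector arrays. In both genes the HS3ST2-labelled arrays spread more widely than the controls but stayed below them. POLR1E fell by 0.43 ± 0.07 log2 (SE, adjusted p 0.00365) and RRN3 by 0.35 ± 0.06 (adjusted p 0.00408). Of the 3 POLR1E probe sets, the third gave -0.06 and was not called. RRN3 has near-identical pseudogene copies, and probe sets also annotated to those copies were not used.

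POLR1D, another subunit shared by RNA polymerases I and III, was the gene that rose. It had 0.10, 0.12 and 0.09 in the HS3ST2-labelled arrays, against -0.20, -0.12 and -0.15 in the control vector arrays. All 3 HS3ST2-labelled arrays were above all 3 controls, and POLR1D rose by 0.26 ± 0.05 log2 (SE, n = 3 per group, limma adjusted p 0.00767). POLR1D has 3 probe sets, of which 2 were called higher (0.32 and 0.40) and the third was near 0 (0.05). The shared subunits POLR1C and POLR1D thus had differences of opposite sign.

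The other 4 genes of this role were not called. UBTF, the factor that binds ribosomal DNA along its length, had a difference of -0.19 ± 0.07 log2 (adjusted p 0.0904) and POLR1A, the largest catalytic subunit, one of -0.16 ± 0.06 (adjusted p 0.0925). POLR1B, the other large catalytic subunit, gave -0.10 ± 0.05 (adjusted p 0.213). The single usable probe set of TAF1D, a subunit of the promoter factor SL1, gave -0.05 ± 0.09 (adjusted p 0.714) and a 95% interval from -0.26 to 0.15. By the rule, probe sets annotated to TAF1D and also to other symbols were not used, and these were higher in the HS3ST2-labelled arrays. They had 0.07, 0.18 and 0.11 against -0.13, -0.07 and -0.16 in the control vector arrays, and 0.30, 0.01 and 0.32 against -0.01, -0.38 and -0.52.

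Core proteins of the snoRNPs and scaffold proteins of the nucleolus were measured by 9 genes. Of these, 6 fell (66.7%) and 3 were not called, where 13% of all genes were called lower and 11.5% higher. None of the 9 rose by limma, also at an unadjusted p under 0.05. FBL, the fibrillarin methyltransferase of the box C/D particles, had -0.21, -0.23 and -0.29 in the HS3ST2-labelled arrays, against 0.26, 0.21 and 0.22 in the control vector arrays. Its values were tight within each group, and it fell by 0.47 ± 0.05 log2 (SE, n = 3 per group, adjusted p 0.000479). NOP58, which holds the same particle together, fell by 0.25 ± 0.06 (adjusted p 0.0221), a call that was lost when HS3ST2 replicate 1 or 2 or control replicate 1 or 2 was left out (adjusted p 0.0641, 0.0731, 0.0658 and 0.0766) and with the replicate number as a block (adjusted p 0.0523).

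The box H/ACA particles, which turn uridine into pseudouridine, were measured through GAR1 and NHP2. GAR1 had -0.13, -0.22 and -0.14 in the HS3ST2-labelled arrays, against 0.33, 0.19 and 0.13 in the control vector arrays. NHP2 had -0.09, -0.14 and -0.24 in the HS3ST2-labelled arrays, against 0.28, 0.09 and 0.15 in the control vector arrays. Both genes had their highest value in control replicate 1, and neither had overlapping groups. GAR1 fell by 0.37 ± 0.07 log2 (SE, adjusted p 0.00489) and NHP2 by 0.33 ± 0.07 (adjusted p 0.0113).

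NOLC1, a nucleolar phosphoprotein that binds both kinds of snoRNP, had -0.12, -0.19 and -0.15 in the HS3ST2-labelled arrays, against 0.08, 0.13 and 0.09 in the control vector arrays. The groups did not overlap, and NOLC1 fell by 0.25 ± 0.05 log2 (SE, n = 3 per group, adjusted p 0.00879). Its only probe set that does not end in _s_at gave -0.13 and was not called. TCOF1, the treacle protein that links polymerase I to the modification machinery, fell by 0.25 ± 0.06 (adjusted p 0.0225). That call was lost without HS3ST2 replicate 1 or 2 or control replicate 1 or 3 (adjusted p 0.059, 0.0768, 0.0681 and 0.0705). Of its 3 probe sets the pair ending in _s_at gave -0.47 and -0.37 and the other gave 0.08.

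The abundant nucleolar proteins were not called. NPM1, nucleophosmin, had a difference of -0.13 ± 0.05 log2 (adjusted p 0.137), with its 3 probe sets between -0.16 and -0.10. NPM1 has many processed pseudogenes whose transcripts such probe sets could also take up. NCL, nucleolin, had 0.03 ± 0.06 (adjusted p 0.787), from a probe set at -0.21 and another at 0.27 that did not pass on their own over all probe sets (adjusted p 0.0565 and 0.0511). NPM3, a relative of nucleophosmin, had 0.02 ± 0.08 (adjusted p 0.886).

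**Figure D3:**
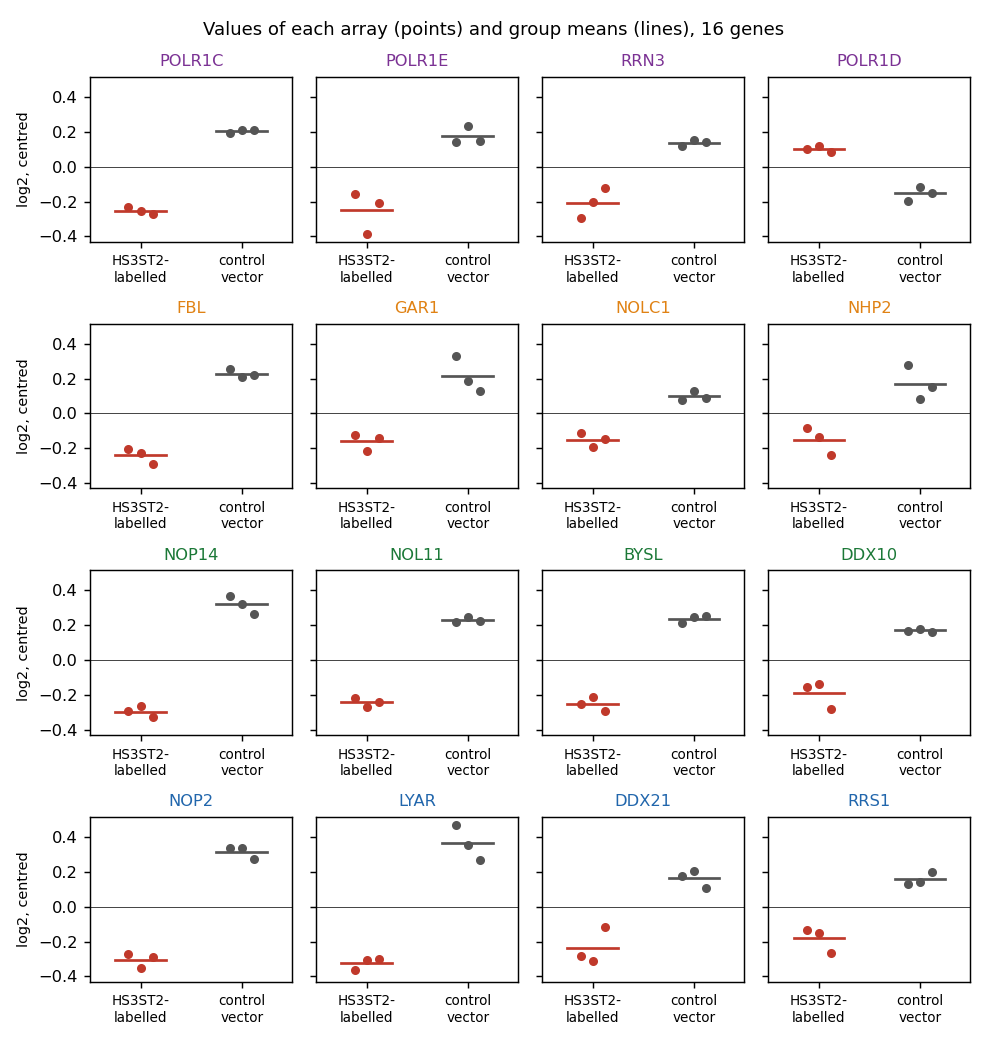
Values of each array (points, log2, centred on the probe sets' medians) and group means (lines) for the 4 genes of each role with the smallest p: RNA polymerase I in the top row, then snoRNP and scaffold, small subunit, and large subunit and others. In all 16 genes the 3 HS3ST2-labelled arrays lie on one side of the 3 control vector arrays, above them in POLR1D and below them elsewhere.

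Factors of the small subunit form the largest role, with 19 genes. Of these, 10 fell (52.6%) and 9 were not called, where 13% of all genes were called lower and 11.5% higher. All 19 differences were negative, from -0.62 to -0.03 log2, and none was called higher by limma, also at an unadjusted p under 0.05. NOP14, a component of the processome that folds and cuts the small-subunit precursor, had -0.29, -0.27 and -0.33 in the HS3ST2-labelled arrays, against 0.37, 0.32 and 0.27 in the control vector arrays. The gap between its groups was several times their spread, and it fell by 0.62 ± 0.05 log2 (SE, n = 3 per group, limma adjusted p 0.000165), 1.53-fold.

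NOL11, a processome protein needed for transcription and early cleavage of the precursor, had -0.22, -0.27 and -0.24 in the HS3ST2-labelled arrays, against 0.22, 0.25 and 0.22 in the control vector arrays. BYSL, bystin, which acts late in the maturation of the small subunit, had -0.25, -0.21 and -0.29 in the HS3ST2-labelled arrays, against 0.21, 0.25 and 0.25 in the control vector arrays. Both genes were measured by 1 probe set, with the groups well apart. NOL11 fell by 0.47 ± 0.05 log2 (SE, adjusted p 0.000348) and BYSL by 0.49 ± 0.05 (adjusted p 0.000351).

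DDX10, an RNA helicase of the processome, had -0.16, -0.13 and -0.28 in the HS3ST2-labelled arrays, against 0.17, 0.18 and 0.16 in the control vector arrays. It fell by 0.36 ± 0.06 log2 (SE, n = 3 per group, adjusted p 0.00283), from 1 probe set at -0.67 and another at -0.05 that was not called. Of the UTP proteins, which make up the body of the processome, UTP20 fell by 0.40 ± 0.08 (adjusted p 0.00825), UTP15 by 0.31 ± 0.06 (adjusted p 0.00548) and UTP18 by 0.35 ± 0.09 (adjusted p 0.0204). HEATR1, a large scaffold of the same complex, fell by 0.23 ± 0.05 (adjusted p 0.0134), and NAT10, which acetylates cytidines of the small-subunit RNA, fell by 0.32 ± 0.06 (adjusted p 0.0077). UTP15 and UTP18 each had 1 probe set called lower (-0.52 and -0.51) and another not called (-0.11 and -0.19). Of the 5 HEATR1 probe sets, 2 were called lower (-0.47 and -0.43) and the others, from -0.17 to -0.02, were not called.

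RRP9, a protein of the U3 snoRNP, was called although its groups touched. It had 0.008, -0.23 and -0.25 in the HS3ST2-labelled arrays, against 0.41, -0.008 and 0.49 in the control vector arrays, so that control replicate 2 lay below HS3ST2 replicate 1. RRP9 fell by 0.46 ± 0.13 log2 (SE, adjusted p 0.0408), and the call was lost without HS3ST2 replicate 2 or 3 or control replicate 1 or 3 (adjusted p 0.112, 0.115, 0.12 and 0.116). UTP18 was also not called without HS3ST2 replicate 1 or 3 or control replicate 2 or 3 (adjusted p 0.0644, 0.0639, 0.0586 and 0.0616), and HEATR1 not without HS3ST2 replicate 2 (adjusted p 0.0511).

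The small-subunit factors that were not called were WDR75 (-0.24 ± 0.11 log2), UTP14A (-0.17 ± 0.07), NOL6 (-0.10 ± 0.06), WDR3 (-0.10 ± 0.08), UTP11, listed under its older symbol UTP11L (-0.09 ± 0.05), UTP3 (-0.09 ± 0.05), NOL10 (-0.06 ± 0.07), WDR43 (-0.05 ± 0.06) and RRP12 (-0.03 ± 0.05). Their adjusted p ran from 0.154 for UTP14A to 0.755 for RRP12. WDR75 was called lower when control replicate 1, its lowest control, was left out (-0.36, limma adjusted p 0.0141). For RRP12, which acts in nuclear export of the subunits, the 95% interval of the difference ran from -0.15 to 0.09.

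Large-subunit factors and other nucleolar proteins were measured by 12 genes. Of these, 7 fell (58.3%) and 5 were not called, where 13% of all genes were called lower and 11.5% higher. None of the 12 rose by limma, also at an unadjusted p under 0.05. LYAR, a nucleolar zinc-finger protein, had the largest difference of the 48 genes. Its values were -0.36, -0.31 and -0.30 in the HS3ST2-labelled arrays, against 0.47, 0.35 and 0.27 in the control vector arrays. Each array of either group lay at least 0.27 log2 from 0, on opposite sides. LYAR fell by 0.69 ± 0.06 log2 (SE, n = 3 per group, limma adjusted p 0.000231), 1.61-fold, with both probe sets called (-0.73 and -0.65).

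NOP2, which methylates a cytosine of the large-subunit RNA and is known as a proliferation antigen, had -0.27, -0.35 and -0.29 in the HS3ST2-labelled arrays, against 0.34, 0.34 and 0.27 in the control vector arrays. It fell by 0.62 ± 0.05 log2 (SE, adjusted p 0.000144), the smallest p of the 48 genes and rank 360 of all 19775. DDX21, an RNA helicase of polymerase I transcription and snoRNA release, had -0.28, -0.31 and -0.12 in the HS3ST2-labelled arrays, against 0.17, 0.21 and 0.11 in the control vector arrays. HS3ST2 replicate 3 was the closest of its group to the controls but still below them. DDX21 fell by 0.40 ± 0.07 log2 (adjusted p 0.00362), with both probe sets called (-0.51 and -0.29).

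RRS1, which brings the 5S particle into the precursor of the large subunit, had -0.13, -0.15 and -0.27 in the HS3ST2-labelled arrays, against 0.13, 0.14 and 0.20 in the control vector arrays. Its groups did not overlap, and it fell by 0.34 ± 0.06 log2 (SE, n = 3 per group, adjusted p 0.0037). GNL2, a GTPase needed for release of the large subunit from the nucleolus, fell by 0.35 ± 0.07 (adjusted p 0.00665). MRTO4, a stalk-protein relative that holds its place during assembly, fell by 0.34 ± 0.06 (adjusted p 0.00542), but of its probe sets the one ending in _s_at gave -0.63 and the other -0.05. NOP16 fell by 0.23 ± 0.05 (adjusted p 0.0175), a call lost without HS3ST2 replicate 1 or 3 or control replicate 3 (adjusted p 0.0568, 0.0564 and 0.0594). Of the 4 NOP16 probe sets, 2 were called lower (each -0.49) and the others, at -0.05 and 0.11, were not called.

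PES1 and WDR12 belong, with BOP1, to a complex needed to process the large-subunit RNA, and neither was called. Their probe sets went apart. For WDR12 the gene difference was -0.14 ± 0.05 log2 (adjusted p 0.102), from probe sets at -0.59, 0.07 and 0.10, of which the first was called lower. For PES1 it was -0.01 ± 0.07 (adjusted p 0.93), from a probe set at -0.29 that was called lower and another at 0.27 that was not called. GRWD1, a histone-binding protein of the nucleolus, had -0.21 ± 0.08 (adjusted p 0.0934, and 0.0487 without control replicate 2), the helicase DDX56 -0.10 ± 0.06 (adjusted p 0.295) and RRP1B 0.10 ± 0.05 (adjusted p 0.214).

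Probe sets of 1 gene often differed. Of the 98 probe sets, 35 were called lower (35.7%), 3 higher and 60 not, by limma over all probe sets, where 8.98% of all probe sets were called lower and 7.9% higher. Of the 28 genes with more than 1 probe set, 14 had some but not all of them called, and no gene had probe sets called in both directions. The 3 probe sets called higher were 2 of POLR1D and 1 of RRP1B (0.25). NOP58 and RRP9, measured by 1 probe set each, were called over genes but not by limma over all probe sets (adjusted p 0.0524 and 0.0634).

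To place these genes in their pathway, 120 further ribosome biogenesis genes were counted. Of these, 47 fell (39.2%), 9 rose (7.5%) and 64 were not called, with a median of -0.15 log2. The share that fell was above the 13% of all genes called lower. The share that rose was below the 11.5% called higher. EMG1, a methyltransferase of the small-subunit RNA, fell by 0.61 ± 0.06 log2, NOC3L and FTSJ3, large-subunit factors, by 0.50 ± 0.05 and 0.51 ± 0.06, and the nuclear exonuclease XRN2 by 0.44 ± 0.05. Among those that rose were NMD3, the export adaptor of the large subunit (0.54 ± 0.06), ZNHIT6, an assembly factor of box C/D particles (0.50 ± 0.05), EXOSC6, a subunit of the RNA exosome (0.35 ± 0.06), and the exosome cofactor C1D (0.30 ± 0.05). By part of the pathway, 2 of 7 other genes of RNA polymerase I fell (28.6%) and 1 rose (14.3%). Of 10 snoRNP genes, 5 fell (50%) and 1 rose (10%). Of 42 small-subunit genes, 13 fell (31%) and 2 rose (4.76%). Of 48 large-subunit genes, 22 fell (45.8%) and 3 rose (6.25%). Of 13 exosome and exonuclease genes, 5 fell (38.5%) and 2 rose (15.4%). The shares that fell were all above 13%, and those that rose lay on both sides of 11.5%.

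The proteins of the finished ribosome were counted in the same way. Of 53 measured cytosolic ribosomal protein genes, 1 fell (1.89%) and 6 rose (11.3%), with a median of 0.03 log2. The share that rose was near the 11.5% of all genes called higher, and the share that fell was below the 13% called lower. Without _x_at and _s_at probe sets 3 of 30 fell, where 1661 of all 17098 genes measured there fell, so the low share was not seen at that setting. RPS28 fell by 0.36 ± 0.05, while RPL37 rose by 0.41 ± 0.06 and RPS25 by 0.23 ± 0.05. The 6 rises became 4, 2 and 1 without HS3ST2 replicate 1, 2 and 3, and 3 without control replicate 1, 2 or 3, and the 1 fall became 2 without control replicate 3. Those fits called 1729 to 1899 of all 19775 genes higher and 2025 to 2162 lower. Of 73 measured mitochondrial ribosomal protein genes, 38 fell (52.1%) and 3 rose (4.11%), with a median of -0.21 log2. MRPS28 fell by 1.04 ± 0.06 and MRPL27 by 0.70 ± 0.06, while MRPL1 rose by 0.59 ± 0.06 and MRPS25 by 0.45 ± 0.06. The differences between these lists were not tested. Ribosomal protein genes have many processed pseudogenes, and probe sets annotated to more than 1 gene were not used.

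**Figure D4:**
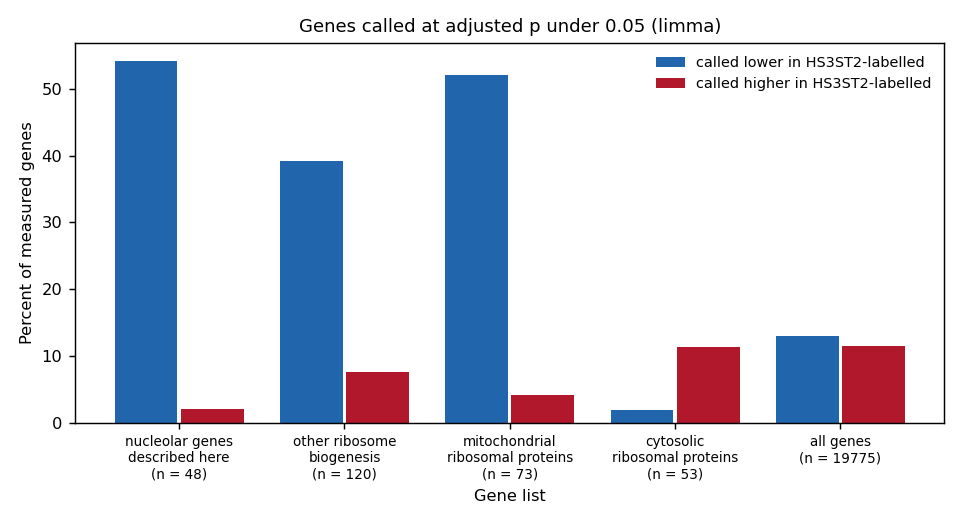
Percent of measured genes called lower (blue) and higher (red) in the HS3ST2-labelled arrays by limma at an adjusted p under 0.05, for the 48 nucleolar genes, the other lists and all 19775 genes. The shares called lower are 54.2% for the nucleolar genes, 39.2% for further biogenesis genes, 52.1% for mitochondrial and 1.89% for cytosolic ribosomal protein genes, against 13% over all genes.

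The product of the pathway could be read only through 6 control probe sets of the array, 3 for 18S and 3 for 28S ribosomal RNA. Their median was 0.02, 0.16 and 0.74 in the HS3ST2-labelled arrays, against -0.20, -0.06 and -0.29 in the control vector arrays. By this median the HS3ST2-labelled arrays were above the controls, by 0.49 log2, and were spread more widely (SD 0.38, against 0.12). An exact permutation test gave p = 0.1 (two-sided, n = 3 per group), the smallest that this design allows. Taken alone, the 18S median did not separate the groups, with control replicate 1 at 0.05 and HS3ST2 replicate 1 at -0.05, whereas the 28S median did. Single probe sets overlapped at the 5 prime and middle positions of 18S RNA and the 5 prime position of 28S RNA. They did not overlap at the other positions. Without HS3ST2 replicate 3, where the 5 prime probe set of 18S RNA reached 1.89, the difference in the median of all 6 was 0.27. These probe sets show how much ribosomal RNA was labelled in a library, not how much a cell contained. Without that same array, 23 of the 48 genes were called lower, and 2026 of all 19775 genes.

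**Figure D5:**
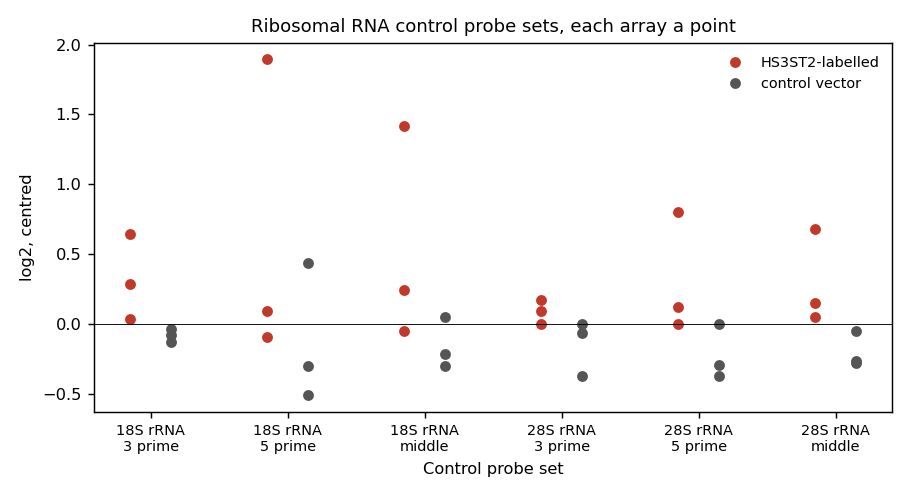
Values of each array (points, log2, centred) at the 18S and 28S ribosomal RNA control probe sets, by position in the RNA. HS3ST2 replicate 3 gives the highest point in 5 of the 6 probe sets, up to 1.89 at the 5 prime probe set of 18S RNA.

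Proliferation markers were also lower in the HS3ST2-labelled arrays, in a list chosen with earlier results of these data known. All 10 markers measured fell, with a median difference of -0.73 log2, where 13% of all genes were called lower. The median of the 10 was -0.39, -0.42 and -0.37 in the HS3ST2-labelled arrays, against 0.41, 0.48 and 0.35 in the control vector arrays. Their differences ran from -1.49 for CDC20 and -1.33 for PLK1 to -0.42 for PCNA and -0.37 for MCM2. CCNB1 (-0.98), AURKA (-0.96), MKI67 (-0.74), TOP2A (-0.72), CDK1 (-0.64) and BUB1 (-0.60) lay between. Their part in the result was not tested. In bulk RNA, fewer cells that express a gene and less of its RNA per cell cannot be told apart.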

How the data were processed

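RNA of 6 samples (3 HS3ST2-labelled, 3 control vector) was labelled as biotinylated cRNA and measured on Affymetrix arrays, per the labels' protocols. The submitters' processing notes name RMA. The deposited log2 values are centred, so that every probe set has a median of 0 over the 6 arrays, by a step not given in the sources used here, and the base of the logarithm was taken as 2, the base RMA writes. Arrays give no counts, and their number limits the precision. Of 54675 probe sets, 62 are controls. Platform annotation gave 1 symbol for 41091, several for 1801 and none for 11721, and 41037 were matched to current symbols by gene number. Probe sets of a gene were averaged, giving 19775 genes. The groups were compared with limma 3.58.1 (R 4.3.3; lmFit, eBayes, no covariate), Benjamini-Hochberg adjusted over all genes, and the code was tested on simulated data. All measured members are named. Values of every array are given for the 4 members of each role with the smallest p, and for RRP9, chosen after its values were seen because its groups overlapped. Also named are the 4 other biogenesis genes called in each direction with the smallest p, up to 2 ribosomal protein genes per list and direction, and 10 proliferation markers. Members and lists were chosen with earlier results of these data known. Replicate numbers were not treated as pairs: deviations of same-numbered arrays correlated at 0.12, 0.05 and -0.08. Alternatives tried were leaving out each array, the replicate number as a block, quantile or median normalization, array weights, thresholds of 0.01 and 0.1, leaving out _x_at and _s_at probe sets, the probe set of largest SD, and robust eBayes.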

Additional observations from a re-analysis of the deposited data

How the results depend on the processing

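Quantile normalization, median centring of arrays and robust eBayes changed no call among the 48 genes, and array weights ended 1 call, that of RRP9. The count of 26 falls ranged from 22 to 25 over left-out arrays and was 25 with a replicate block, where the call of NOP58 was lost and no other changed. Of all 19775 genes, 2025 to 2162 fell over left-out arrays and 2312 with a replicate block. With _x_at and _s_at probe sets left out, 17 of 39 nucleolar genes fell and 2 rose, 21 of 92 further biogenesis genes fell and 5 rose, 16 of 43 mitochondrial ribosomal protein genes fell, and 3 of 30 cytosolic ones fell and 2 rose, with fewer genes tested, of which 1661 of 17098 fell and 1667 rose. There NOLC1 (-0.13) and MRTO4 (-0.05) were not called, NCL (0.27) was called higher, WDR12 (-0.26) was called lower, and TCOF1 (0.083), RRP12 (0.0886), WDR3 (0.0569), UTP11 (0.0231) and POLR1B (0.0189) were positive and not called; the cause was not tested. With the probe set of largest SD, 3 nucleolar genes were called higher (POLR1D, NCL at 0.27 and RRP1B at 0.25) and 3 cytosolic ribosomal protein genes fell. WDR12 and NOL6 were called lower there, RRP9 was not called, and PES1 (0.27), WDR3 (0.0569) and POLR1B (0.0189) were positive. Of all 19775 genes, 2742 fell and 2456 rose at that setting. At an adjusted p under 0.01, 19 of the 48 nucleolar genes fell and 1 rose, and 28 of 73 mitochondrial ribosomal protein genes fell and 2 rose. There 28 of the 120 further biogenesis genes fell and 5 rose, and 1 of 53 cytosolic ribosomal protein genes rose. Of all 19775 genes, 1555 fell and 1285 rose at that threshold. At 0.1, 4 of the 53 cytosolic ones fell, where 3242 of all 19775 genes fell. Over left-out arrays the cytosolic list gave 1 to 4 rises and 1 to 2 falls. Genes near 0 changed sign over left-out arrays, with TAF1D at -0.14 to 0.0299, NCL at -0.0063 to 0.0542, NPM3 at -0.0405 to 0.0791, NOL10 at -0.11 to 0.006, WDR43 at -0.0842 to 0.0041 and PES1 at -0.0715 to 0.0243, none of them called. The ribosomal RNA difference stayed positive at 0.27 to 0.63. Without levels, probe sets near background cannot be identified or filtered.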
